A study of Homo sapiens with 12 samples.

Results

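The genes described here are 10 genes of the bone morphogenetic protein (BMP) response: ID1, ID2, ID3, ID4, SMAD6, SMAD7, MSX1, MSX2, BMPR1A and BMPR2. They were taken by name from a table of 60664 genes, and all 10 were among the 17960 genes with enough counts to be tested. The study grew SK-N-SH, an established human neuroblastoma line, on substrates of 3 stiffnesses, 1, 8 and 30 kPa, and sequenced total RNA of 4 libraries at each. Its stated purpose was to learn how the stiffness of the substrate changes gene expression and signalling in neuroblastoma cells. No drug, ligand or genetic change is named in the labels, so the groups differ by stiffness alone as far as these say. The labels name neither the substrate material and its coating nor the medium and the time in culture. The labels do not say that the 4 libraries of a group came from separate cultures, so the p-values measure only the spread between these libraries, which may be technical.

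BMPs are secreted ligands that bind a pair of type I receptors, such as BMPR1A, and a pair of type II receptors, such as BMPR2. The activated type I receptor phosphorylates SMAD1, SMAD5 or SMAD9, which join SMAD4, enter the nucleus and bind DNA. ID genes are the best known direct targets, SMAD6 and SMAD7 are induced as feedback inhibitors, and MSX1 and MSX2 are homeobox targets. BMPs are also known for setting the sympathetic fate of neural crest cells, the lineage from which neuroblastoma arises.

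At 1 kPa a library held between 14317437 and 15896607 counts, at 8 kPa between 14951116 and 25349320, and at 30 kPa between 23896536 and 27820973. The 5 libraries under 2e+07 counts were the 4 at 1 kPa and 8 kPa replicate 1, so depth moves with stiffness. In single libraries the 10 genes had between 66 and 4527 counts. CPM stands for a gene's counts over the library's total, with totals scaled by TMM (trimmed mean of M-values); levels in CPM are compared between genes only per kilobase of exon. Differences are log2 fold changes from edgeR's quasi-likelihood test, with their standard error (SE) and a p-value adjusted by the Benjamini-Hochberg method over all 17960 genes; an adjusted p under 0.05 passed. The tests of 8 and of 30 kPa against 1 kPa share the 1 kPa libraries and are therefore not independent.

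Among SK-N-SH markers, the sympathetic genes PHOX2A and STMN2 were detected in every library. TH, which encodes tyrosine hydroxylase, had 1 count in all 12 libraries together. The other 9 of the 10 listed sympathetic markers had enough counts to be tested. Among them were DBH, CHGA and CHGB, with means of 54.3, 63.8 and 81.3 CPM over the 12 libraries. The summed level of 7 mesenchymal neuroblastoma markers lay between 3999 and 5156 CPM in all libraries, and that of 10 sympathetic markers between 654 and 1368 CPM. These sums are not per kilobase of exon, so the lists are not compared with each other. The 6 immune markers summed to between 0.391 and 1.05 CPM; CD3E and LYZ, which mark T cells and myeloid cells, had 3 counts each in all libraries together. In RNA from whole cultures, fewer cells of a type and less RNA per cell cannot be told apart.

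Promoter sequence is shown for 4 members that passed the test described further on, 1 from each family: ID1, SMAD6, MSX2 and BMPR2. RefSeq (GRCh38.p14) gave a start for each of the 10 genes, 12 starts in all since SMAD7 has 3. In the 250 bases before each start, 3 motifs were searched on both strands: GGCGCC and GGAGCC, short sites of the SMAD1 and SMAD5 type, and GTCTAGAC, the palindrome of the SMAD3 and SMAD4 type. Capitals mark a match, and a match on the other strand reads GGCTCC for GGAGCC. Each sequence is on the + strand and runs 5′ to 3′.
ID1, chr20:31605039-31605288, 2 matches to GGAGCC: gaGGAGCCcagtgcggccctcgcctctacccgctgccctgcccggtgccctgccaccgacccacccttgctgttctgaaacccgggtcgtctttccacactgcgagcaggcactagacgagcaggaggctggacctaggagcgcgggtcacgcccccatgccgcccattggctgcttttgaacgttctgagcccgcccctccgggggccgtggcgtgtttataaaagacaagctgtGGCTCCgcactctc
SMAD6, chr15:66701986-66702235, 3 matches to GGAGCC and 1 to GTCTAGAC: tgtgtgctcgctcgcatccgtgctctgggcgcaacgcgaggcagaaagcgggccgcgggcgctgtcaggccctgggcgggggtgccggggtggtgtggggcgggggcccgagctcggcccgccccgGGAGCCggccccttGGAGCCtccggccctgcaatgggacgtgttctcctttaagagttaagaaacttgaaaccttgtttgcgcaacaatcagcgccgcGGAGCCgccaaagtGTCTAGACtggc
MSX2, chr5:174724332-174724532, no match, cut 49 bases before the RefSeq start because an exon of another annotation begins there: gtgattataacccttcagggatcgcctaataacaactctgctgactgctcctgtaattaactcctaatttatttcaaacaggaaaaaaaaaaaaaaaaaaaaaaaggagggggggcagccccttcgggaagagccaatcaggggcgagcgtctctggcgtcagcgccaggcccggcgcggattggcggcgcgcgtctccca
BMPR2, chr2:202376077-202376326, 1 match to GGAGCC and 1 to GGCGCC: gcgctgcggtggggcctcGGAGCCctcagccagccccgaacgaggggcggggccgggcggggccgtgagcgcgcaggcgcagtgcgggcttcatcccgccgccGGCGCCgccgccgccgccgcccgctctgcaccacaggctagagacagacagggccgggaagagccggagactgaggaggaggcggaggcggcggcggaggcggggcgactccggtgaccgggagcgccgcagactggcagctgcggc

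Of the 12 windows, 7 held GGAGCC, against 30.6% of the 35116 windows of the same length before all RefSeq starts. GGCGCC was in 1 of the 12 (BMPR2), against 16.4% of all windows, and GTCTAGAC was in 1 of the 12 (SMAD6), against 0.18%. The windows of ID2, MSX2 and BMPR1A held none of the 3 motifs. A match is only a run of letters, and no binding was measured in these libraries. The motifs do not overlap one another.

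The ID genes encode small helix-loop-helix proteins without a DNA-binding region, which pair with E proteins and keep them off DNA. ID1 (ENSG00000125968, chr20:31605283-31606515 on the + strand) had 45.8, 53.3, 59.0 and 56.0 CPM in the 4 libraries at 1 kPa. At 8 kPa it had 71.0, 76.7, 86.1 and 83.6 CPM, and at 30 kPa 49.1, 69.8, 79.4 and 73.1 CPM. Every 8 kPa library was above every 1 kPa library, whereas the 30 kPa libraries overlapped both groups. Replicate 1 at 30 kPa lay within the 1 kPa range, and replicates 3 and 4 lay within the 8 kPa range. The means were 53.6 ± 5.65, 79.3 ± 6.84 and 67.8 ± 13.1 CPM (SD, n = 4 each). ID1 was 1.48-fold higher at 8 than at 1 kPa (log2 0.57, SE 0.123, edgeR adjusted p = 0.0131).

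ID2 (ENSG00000115738, chr2:8678845-8684453, +) had 91.6, 95.8, 100.7 and 111 CPM at 1 kPa and 117, 120, 132 and 127 CPM at 8 kPa. The 30 kPa libraries had 86.4, 112, 109 and 113 CPM. The 8 kPa libraries thus lay above all others, and replicate 1 at 30 kPa was the lowest of the 12. The rise from 1 to 8 kPa was 1.24-fold (log2 0.31, SE 0.0840, edgeR adjusted p = 0.0274). An antisense gene, ID2-AS1, shares 38 exonic bases with ID2 and had 3413 counts over the 12 libraries; with no strand setting given, reads in those bases cannot be told apart.

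ID3 (ENSG00000117318, chr1:23557918-23559794, −) had 45.8, 53.8, 52.9 and 41.6 CPM at 1 kPa, 54.9, 57.8, 56.8 and 54.9 CPM at 8 kPa, and 49.1, 56.1, 65.0 and 62.2 CPM at 30 kPa. The 8 kPa libraries stood just above the 1 kPa libraries without overlap, but the difference did not pass the test (log2 0.21, SE 0.0914, edgeR adjusted p = 0.133). ID4 (ENSG00000172201, chr6:19837386-19840684, +) ran from 9.12 to 19.9 CPM at 1 kPa, between 13.996 and 19.2 at 8 kPa and between 10.8 and 12.9 at 30 kPa. Its 1 kPa libraries spanned the whole 8 and 30 kPa ranges, and no ID4 difference passed (adjusted p between 0.199 and 0.466 over the 3 comparisons). ID4 had the widest spread of the 10 genes within groups, a coefficient of variation of 20.6%, against a median of 10.9% for all tested genes.

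**Figure D1:**
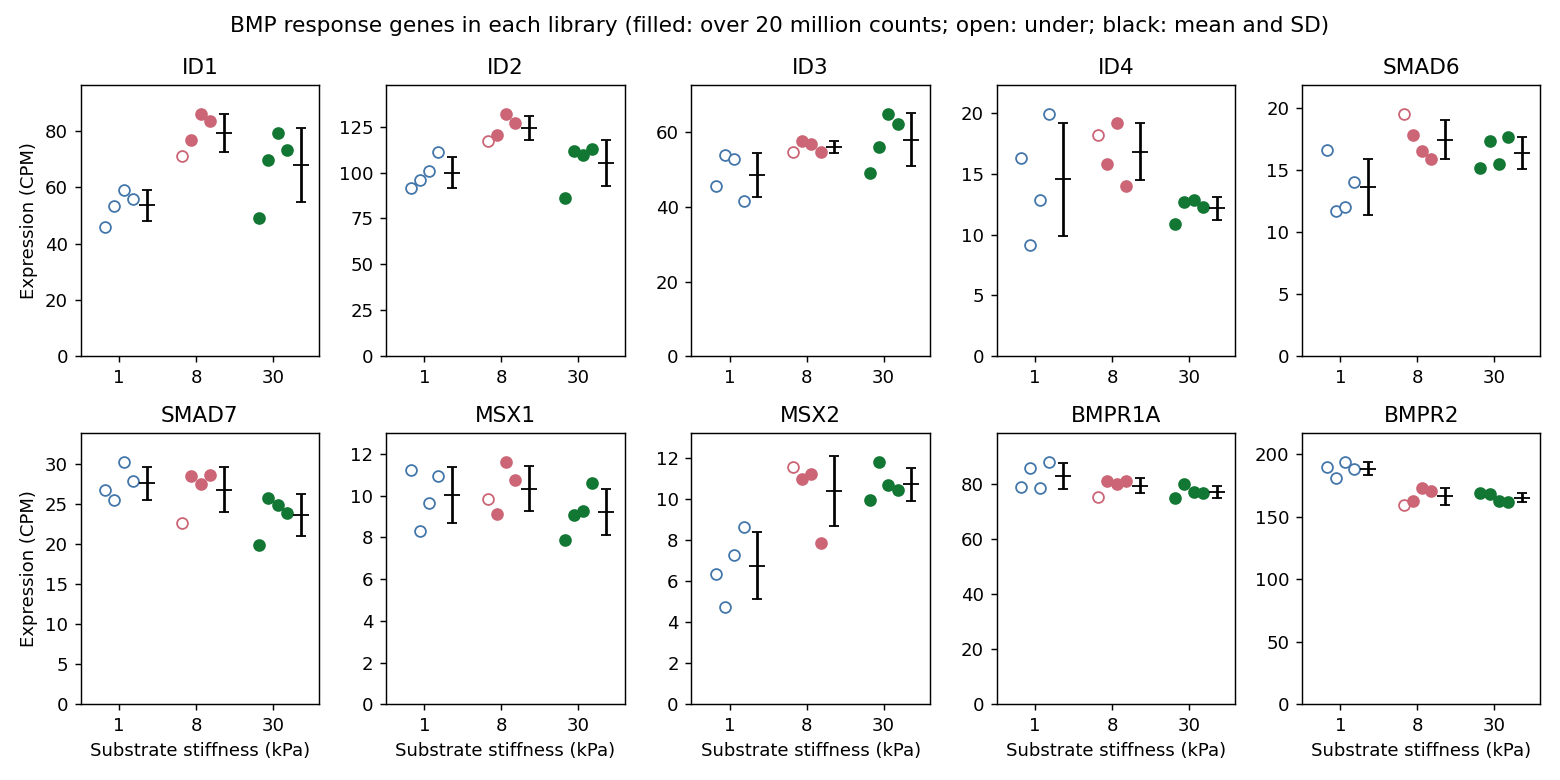
Level of each of the 10 genes in CPM (vertical axes, 1 panel per gene) in each of the 12 libraries at 1, 8 and 30 kPa. Points are libraries, open points have under 2e+07 counts, and bars are group means with SD. ID1 and ID2 stand higher at 8 than at 1 kPa without overlap, and BMPR2 stands lower.

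SMAD6 and SMAD7 are inhibitory SMADs, which block the activated type I receptor or compete with the signalling SMADs. SMAD6 (ENSG00000137834, chr15:66702228-66782848, +), the more BMP-selective of the pair, had 16.6, 11.7, 12.0 and 14.1 CPM at 1 kPa. At 8 kPa it had 19.5, 17.8, 16.5 and 15.9 CPM, and at 30 kPa 15.1, 17.3, 15.4 and 17.6 CPM. The groups overlap at 1 library: replicate 1 at 1 kPa is above 2 of the 8 kPa libraries. SMAD6 was 1.28-fold higher at 8 than at 1 kPa (log2 0.35, SE 0.109, edgeR adjusted p = 0.0450). SMAD7 (ENSG00000101665, chr18:48919853-48952052, −), which inhibits both the BMP and the TGF-beta branch, had 27.6 ± 2.03, 26.8 ± 2.81 and 23.6 ± 2.61 CPM (SD, n = 4) at 1, 8 and 30 kPa. It did not pass in any comparison (log2 −0.04, −0.19 and −0.23 for 8 against 1, 30 against 8 and 30 against 1 kPa).

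MSX1 and MSX2 are homeobox repressors of the neural crest. MSX2 (ENSG00000120149, chr5:174724533-174730893, +) had 6.36, 4.74, 7.28 and 8.61 CPM at 1 kPa, 11.5, 10.9, 11.2 and 7.86 CPM at 8 kPa, and 9.93, 11.8, 10.6 and 10.4 CPM at 30 kPa. All 30 kPa libraries were above all 1 kPa libraries; at 8 kPa, replicate 4 fell within the 1 kPa range and the other 3 lay above it. MSX2 was 1.53-fold higher at 8 kPa (log2 0.61, SE 0.159, edgeR adjusted p = 0.0248) and 1.58-fold higher at 30 kPa (log2 0.66, SE 0.157, adjusted p = 0.0448) than at 1 kPa. MSX1 (ENSG00000163132, chr4:4859666-4863936, +) ranged from 7.89 to 11.6 CPM over all 12 libraries, and its groups overlapped (adjusted p between 0.457 and 0.836).

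BMPR2, the type II receptor (ENSG00000204217, chr2:202376936-202567751, +), had 190, 181, 194 and 188 CPM at 1 kPa, 159, 162, 173 and 170 CPM at 8 kPa, and 169, 168, 162 and 162 CPM at 30 kPa. Each 1 kPa library was above every library at 8 and 30 kPa, which in turn overlapped each other. At 8 kPa the level was 0.883 of that at 1 kPa (log2 −0.18, SE 0.0465, edgeR adjusted p = 0.0246), and at 30 kPa 0.878 (log2 −0.19, SE 0.0465, adjusted p = 0.0482). BMPR2 had the narrowest spread of the 10 genes, a within-group coefficient of variation of 3.08%, so a small change passed. BMPR1A, the type I receptor (ENSG00000107779, chr10:86756601-86932838, +), had 82.8 ± 4.78, 79.3 ± 2.77 and 77.1 ± 2.04 CPM (SD, n = 4) at 1, 8 and 30 kPa, and none of its differences passed (adjusted p between 0.289 and 0.693). The pseudogenes BMPR1AP1 and BMPR1AP2 had 33 and 47 counts against 19915 for BMPR1A.

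Ordered by level per kilobase of exon, as the mean over the 12 libraries, ID1 (54.3 CPM per kb) and ID2 (49.7) overlapped in range, and ID3 followed at 30.2, with its highest library (36.1) below the lowest of either. BMPR2 (14.6 CPM per kb) came next, and its lowest library, 13.4, was above every library of the 6 genes that follow. BMPR1A had 6.99, ID4 6.19, SMAD7 5.16, MSX1 4.65 and MSX2 4.09 CPM per kb, with ranges that overlap from each gene to the next. SMAD6 was lowest at 1.85, with a highest library of 2.28 against a lowest of 2.09 for MSX2, and stood at the 35.0th percentile of all tested genes, while ID1 was at the 97.0th. Exon length here counts every annotated exon of a gene, 8563 bases for SMAD6 and 2270 for MSX2. The order and the percentiles depend on that choice.

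At 8 against 1 kPa, then, 4 of the 10 genes rose (ID1, ID2, SMAD6 and MSX2) and 1 fell (BMPR2); 5 did not pass. Over all tested genes 13.8% passed in this comparison, 8.17% as higher and 5.6% as lower. The median log2 difference of the 10 genes was 0.21, beside −0.01 for all tested genes. In 3 of the 10 (ID1, ID2 and ID3) the 8 kPa libraries lay above every 1 kPa library, and in 1 (BMPR2) below; over all genes the shares are 9.41% and 7.36%, together 16.8%. An unadjusted p under 0.05 was reached by 6 of the 10 and by 31.2% of all genes. The 10 genes were chosen by name, with earlier results of these data known. These counts are therefore a description, and their distance from the shares of all genes is not a test.

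**Figure D2:**
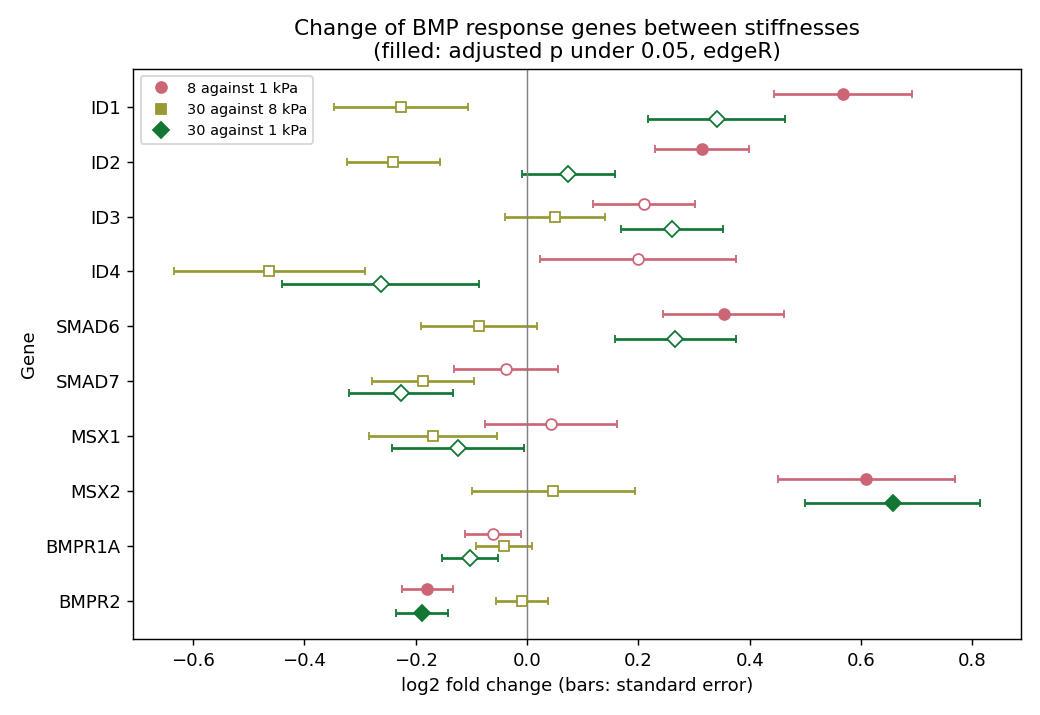
Log2 fold change of each of the 10 genes in each of the 3 comparisons, with bars of 1 SE. Filled points passed the edgeR adjusted p threshold of 0.05: ID1, ID2, SMAD6, MSX2 and BMPR2 at 8 against 1 kPa, MSX2 and BMPR2 at 30 against 1 kPa, and none at 30 against 8 kPa.

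At 30 against 8 kPa no gene of the 10 passed edgeR's test, and neither did any of the 17960 tested genes (0%). ID2 (log2 −0.24, SE 0.0832, adjusted p = 0.181) and ID4 (log2 −0.46, SE 0.172, adjusted p = 0.199) were the 2 members with an unadjusted p under 0.05, a level reached by 17.9% of all genes. In both, each 30 kPa library was below each 8 kPa library; over all genes this held for 6.5%, and the opposite for 4.79%; together 11.3%. DESeq2 called 430 genes and limma-voom 0 in this comparison, and both called 0 of the 10. ID1 differed by −0.23 (SE 0.120, adjusted p = 0.334), so a return of ID1 or ID2 towards the 1 kPa level is not shown by this test.

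At 30 against 1 kPa MSX2 rose, BMPR2 fell, and 8 of the 10 did not pass; of all tested genes 2.43% passed, 1.1% as higher and 1.33% as lower. In the same 2 members the libraries of the groups did not overlap; over all genes this held for 5.33% upwards and 6.06% downwards, 11.4% together. An unadjusted p under 0.05 was reached by 6 of the 10 and by 18.9% of all genes. ID1 had a log2 difference of 0.34 (SE 0.123, edgeR adjusted p = 0.151), ID2 0.07 (SE 0.0840, adjusted p = 0.690) and ID3 0.26 (SE 0.0910, adjusted p = 0.138). SMAD6 had 0.27 (SE 0.108, adjusted p = 0.198). The ID1 value rests on replicate 1 at 30 kPa: without it the difference was 0.47 and the adjusted p 0.0313.

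These calls lie near the threshold, and most depend on single libraries. Of the 12 fits that each left out 1 library, the call at 8 against 1 kPa held in 11 for ID1, in 7 each for ID2, MSX2 and BMPR2, and in 2 for SMAD6. ID1 was lost without 8 kPa replicate 3 (adjusted p = 0.0532). ID2 was lost without 1 kPa replicate 1, 2 or 3, or 8 kPa replicate 1 or 3 (highest 0.0925); MSX2 without 1 kPa replicate 1 or 2, or 8 kPa replicate 1, 2 or 3 (highest 0.0807); and BMPR2 without 1 kPa replicate 1 or 3, or 8 kPa replicate 1, 2 or 3 (highest 0.0764). SMAD6 held only without 1 kPa replicate 1 or 8 kPa replicate 4, and reached 0.135 without 8 kPa replicate 1. At 30 against 1 kPa both calls held in 2 of the 12 fits: MSX2 without 1 kPa replicate 4 or 8 kPa replicate 4, and BMPR2 without 1 kPa replicate 2 or 8 kPa replicate 4. Each reached its highest adjusted p, 0.124 for MSX2 and 0.162 for BMPR2, without 30 kPa replicate 3.

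**Figure D3:**
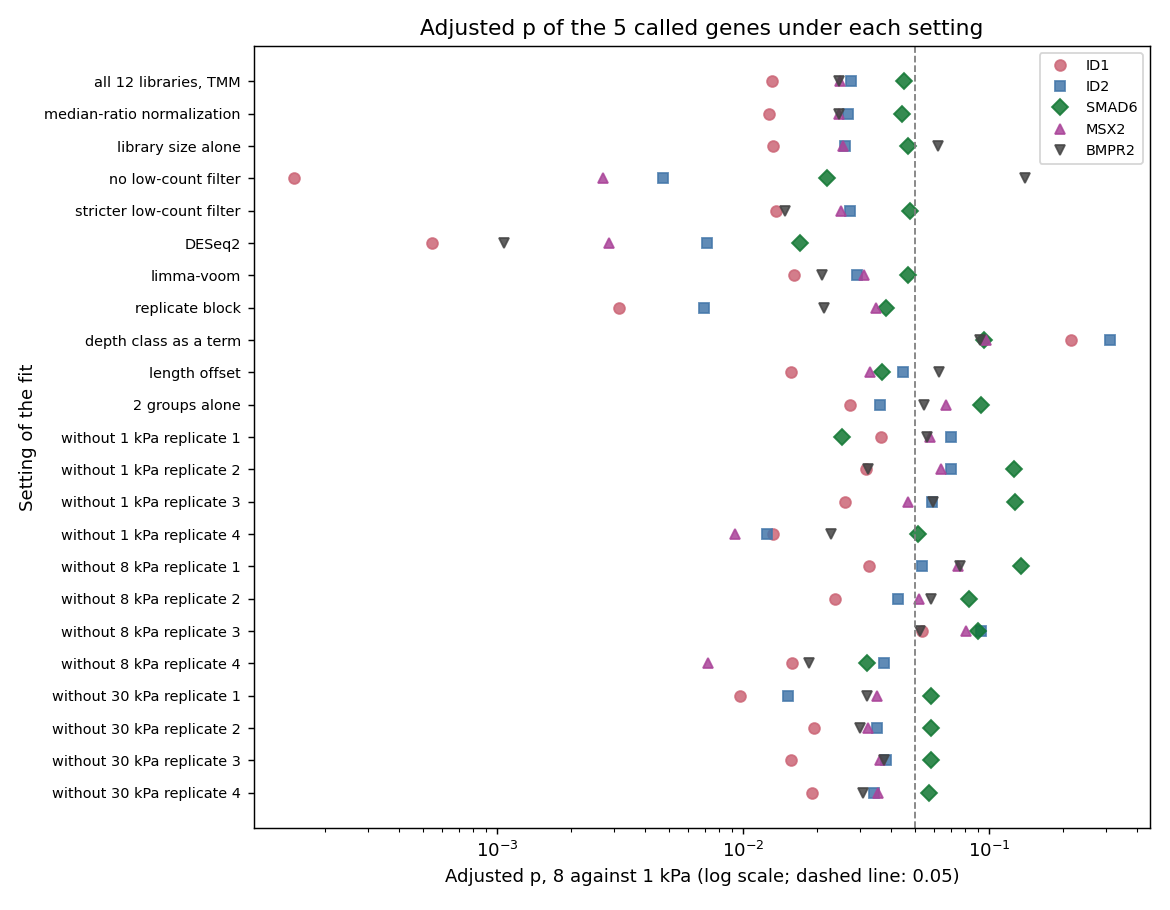
Adjusted p at 8 against 1 kPa (horizontal log axis) of the 5 called genes under the fit of all 12 libraries and each alternative (vertical axis), with a dashed line at 0.05. Points left of the line pass; ID1 lies left of it except without 8 kPa replicate 3 and with depth class as a term, while ID2, SMAD6, MSX2 and BMPR2 fall on both sides.

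Depth was checked in the same way, since 8 kPa replicate 1 is the only library at 8 kPa with a depth like those at 1 kPa. It lay above all 4 libraries at 1 kPa for ID1, ID2, ID3, SMAD6 and MSX2. It lay below all 4 for SMAD7, BMPR1A and BMPR2, and within their range for ID4 and MSX1. For ID1, ID2, ID3 and BMPR2 this was fixed by the lack of overlap between the groups already given. The share of all tested genes with this library outside the 1 kPa range was not counted. These places are therefore a description. With depth class as a term, the 8 against 1 kPa differences rested on that 1 library, and were 0.41 for ID1 (edgeR adjusted p = 0.215), 0.23 for ID2 (0.309), 0.52 for SMAD6 (0.0956), 0.77 for MSX2 (0.0973) and −0.24 for BMPR2 (0.0919). No member and no other gene passed in that fit, while 3 members and 4299 genes in all had an unadjusted p under 0.05. At 30 kPa all libraries are deep and at 1 kPa all are shallow, so depth and stiffness cannot be told apart there. ID1 is short (1233 exonic bases), and the median log2 difference at 8 against 1 kPa of the 834 tested genes in its length class was 0.01, with 11.5% of them called higher. In the next longer class, which holds ID2, ID3, ID4, MSX1 and MSX2, 13.4% were called higher. Both shares are above the 8.17% of all tested genes, and the longest class had 3.1%. The shortest class, 1662 genes shorter than those in the class of ID1, had 4.69% called higher and a median log2 difference of −0.11. From the longest class the share called higher rose through 6.2% and 10.6% to 13.4%. It was lower again in the class of ID1 and in the shortest class. What sets these shares was not tested. With a length offset in the fit ID1, ID2, SMAD6 and MSX2 passed and BMPR2 did not (adjusted p = 0.0629).

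Upstream of the 10 genes, no BMP ligand passed in any comparison. BMP4, a ligand with a central part in sympathetic development, had 0 counts in all 12 libraries, and BMP6 had 39 counts in total. Of 13 listed ligands, 8 could be tested, with a median log2 difference of −0.21 at 8 against 1 kPa and 1 unadjusted p under 0.05 in each comparison. Over all genes 31.2%, 17.9% and 18.9% had such a p at 8 against 1, 30 against 8 and 30 against 1 kPa. BMP2 had 3.65 ± 0.630, 2.88 ± 0.844 and 5.08 ± 0.784 CPM (SD, n = 4) at 1, 8 and 30 kPa and was not called (30 against 8 kPa, log2 0.81, SE 0.186, edgeR adjusted p = 0.120). BMP7 was at 1.29, 1.44 and 1.69 CPM. The other receptors, among them ACVR1, ACVR2A, ACVR2B and BMPR1B, had 0 of 8 past the test in each comparison (unadjusted p under 0.05 in 1 or 2), and at 8 against 1 kPa their log2 differences were −0.16, −0.14, −0.02 and −0.05.

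Of the 4 transducers, SMAD9 was the 1 that rose at 8 against 1 kPa, beside 8.17% of all genes. It had 85.04 ± 12.8, 115 ± 12.8 and 111 ± 7.61 CPM (SD, n = 4) at 1, 8 and 30 kPa, with every 8 kPa library above the 1 kPa libraries (log2 0.44, SE 0.101, edgeR adjusted p = 0.0164). The call was lost without 8 kPa replicate 1 or 3, and SMAD9 did not pass at 30 against 1 kPa (log2 0.38, adjusted p = 0.0610). SMAD1 (−0.02), SMAD5 (0.00) and SMAD4 (−0.08), the common partner, did not pass at 8 against 1 kPa.

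None of 14 tested secreted antagonists and the pseudoreceptor passed in any comparison. At 8 against 1 kPa 2 of them had an unadjusted p under 0.05, beside 31.2% of all genes. GREM1, which binds BMPs outside the cell, had 1537 ± 437, 1098 ± 185 and 1404 ± 208 CPM (SD, n = 4), and missed the threshold at 8 against 1 kPa (log2 −0.48, SE 0.174, edgeR adjusted p = 0.0766). NOG, which encodes noggin, was at 89.1, 84.9 and 83.6 CPM (8 against 1 kPa, adjusted p = 0.808). Among 11 intracellular brakes, FKBP1A, which holds type I receptors inactive (log2 0.25, adjusted p = 0.0213), and SKI, a SMAD corepressor (log2 0.22, adjusted p = 0.0343), rose at 8 against 1 kPa, and SKIL, its relative, fell (log2 −0.23, adjusted p = 0.0202). The other 8 did not pass. Over all genes 13.8% passed in this comparison, and with 11 genes these calls are a description. SKIL also fell at 30 against 1 kPa (log2 −0.26, adjusted p = 0.0281), where 2.43% of all genes passed.

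Of 14 other BMP targets tested, 2 passed at 8 against 1 kPa, a share near the 13.8% of all genes. ZNF423 (log2 0.76, edgeR adjusted p = 0.0263), a zinc-finger partner of SMAD1, and GATA2 (log2 0.46, adjusted p = 0.0265), a transcription factor of sympathetic neurons, rose, and none fell. HAND1 missed the threshold (log2 0.71, adjusted p = 0.0510). Of 8 tested E proteins and basic helix-loop-helix partners, TWIST2 (log2 0.52, adjusted p = 0.0220) and TCF3 (log2 0.30, adjusted p = 0.0441), an E protein that ID proteins bind, rose and none fell. The other 6 did not pass, and 8.17% of all genes passed as higher. Medians at 8 against 1 kPa were 0.04 for the targets and 0.24 for the partners, beside −0.01 for all genes.

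**Figure D4:**
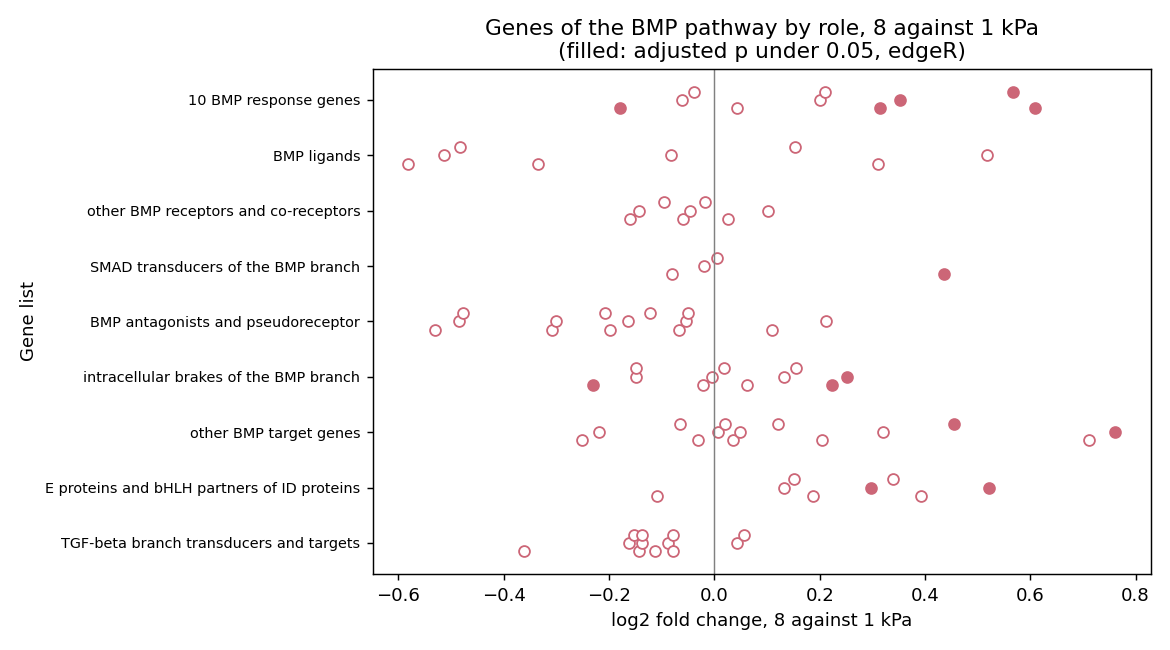
Log2 fold change at 8 against 1 kPa of every tested gene in each list (horizontal axis), by role in the pathway (vertical axis). Filled points passed the adjusted p threshold. The 10 genes, BMPR2 among them, and the partners of ID proteins have medians of 0.21 and 0.24. No ligand, antagonist or receptor outside the 10 genes passed.

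In the TGF-beta branch 0 of 12 genes passed edgeR's test at 8 against 1 kPa (1 with an unadjusted p under 0.05, beside 31.2% of all genes). TGFBI, a matrix target, was the 1 that fell at 30 against 1 kPa (log2 −0.58, edgeR adjusted p = 0.0309). No gene of any list passed at 30 against 8 kPa. Of 9 tested sympathetic markers 3 rose at 8 against 1 kPa, beside 8.17% of all genes. Among them were STMN2 (log2 0.72, adjusted p = 0.0238) and PHOX2A (log2 0.49, adjusted p = 0.0264). The summed level of the sympathetic markers lay between 654 and 1055 CPM at 1 kPa, between 923 and 1368 CPM at 8 kPa and between 1007 and 1163 CPM at 30 kPa. The 7 mesenchymal markers summed to 4740 to 5156, 4268 to 5021 and 3999 to 4498 CPM at 1, 8 and 30 kPa, so that the 30 kPa libraries lay below all 1 kPa libraries. At 8 against 1 kPa each of these 7 had a negative log2 difference, 4 with an unadjusted p under 0.05 (31.2% of all genes) and 0 past edgeR's adjusted threshold. The 7 fibroblast markers summed to 2217 to 2454 CPM at 1 kPa, 1907 to 2125 CPM at 8 kPa and 1961 to 2191 CPM at 30 kPa. These sums did not overlap between 1 kPa and either other group. At 8 against 1 kPa 0 of the 7 fibroblast markers passed edgeR's adjusted threshold, and 2 had a positive log2 difference. Genes with the highest CPM weigh most in such sums: PRRX1 and VIM among the mesenchymal markers, COL3A1 and COL1A1 among the fibroblast markers. The part of these marker levels in the BMP response values was not tested. Of 7 mesenchymal markers PRRX1 (log2 −0.35, adjusted p = 0.0144) and YAP1 (−0.22, adjusted p = 0.0427) fell at 30 against 1 kPa, as did COL3A1 (−0.52, adjusted p = 0.0159) of 7 fibroblast markers. In each of these 2 lists 2 of the 7 had a positive log2 difference, among them FN1 (0.09) and COL1A1 (0.22), which did not pass. Of 9 tested sympathetic markers 2 rose, PHOX2A (0.52, adjusted p = 0.0475) among them. Over all genes 2.43% passed in this comparison. No tested marker of immune, epithelial or endothelial cells passed. PECAM1, an endothelial and leukocyte adhesion gene singled out after its values were seen, missed the threshold at 30 against 1 kPa (log2 −1.75, SE 0.440, adjusted p = 0.0521), with 3.09 to 8.94 CPM at 1 kPa, 1.51 to 7.15 at 8 kPa and 1.33 to 2.02 at 30 kPa. The 6 endothelial markers, PECAM1 included, summed to 5.10 to 10.3 CPM at 1 kPa, 2.87 to 8.07 at 8 kPa and 2.74 to 3.55 at 30 kPa. TEK, the only other one tested, had means of 1.20, 0.766 and 1.20 CPM (30 against 1 kPa, log2 0.003). CDH5, KDR, CLDN5 and VWF had 4, 6, 24 and 51 counts in all libraries together. The sum thus adds little to the PECAM1 values. Every call named for genes outside the 10 at 8 against 1 kPa was lost without 8 kPa replicate 1 and without 8 kPa replicate 3, and every one at 30 against 1 kPa without 30 kPa replicate 3.

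Across the 12 libraries, the genes whose log2 CPM followed each of 4 members most closely were taken from 11673 genes with a mean of at least 5 CPM. For ID1 these were MRPS10 (Pearson r 0.935, Spearman rho 0.944), GSS (0.934, 0.923) and SMAP2 (0.925, 0.909). For ID2 they were ADISSP (0.949, 0.965), PPA2 (0.944, 0.951) and POMP (0.939, 0.979), and for ID3 PNP (0.938, 0.874), BCL2L1 (0.904, 0.860) and PPP1R14B-AS1 (0.901, 0.762). SMAD6 was followed by U2AF2 (0.940, 0.839), NDUFB9 (0.935, 0.867) and B3GAT1 (0.932, 0.853). Among the members themselves, the highest Pearson r was 0.909 for ID1 and ID2, followed by 0.739 for SMAD6 and MSX2, 0.737 for ID4 and MSX1, and 0.731 for ID1 and ID3. The lowest were those of BMPR2 with MSX2 (−0.713), SMAD6 (−0.708), ID3 (−0.703) and ID1 (−0.631). These values are descriptions over 12 libraries that share the stiffness groups and the depth classes, picked as the most extreme of many.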

How the data were processed

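RNA of 12 SK-N-SH libraries was sequenced. The authors deposited raw counts per Ensembl gene. Alignment was with HISAT2 to GRCh38, per the submitters' processing notes. The counting tool, annotation release, strand setting and filters are not given in the sources used here. Of 60664 genes, 60463 identifiers matched the gene table. Positions and exon lengths are from GENCODE v29, promoters from RefSeq.

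The count model was fitted with edgeR 4.0.16 under R 4.3.3 (filterByExpr, TMM, glmQLFit and glmQLFTest, stiffness as the only term, all 12 libraries, Benjamini-Hochberg over 17960 genes, threshold 0.05). The filter kept at least 99.87% of each library's counts. SE is the log2 difference over the root of F. The biological coefficient of variation was 0.0966. No 2 libraries were identical. The script was tested on simulated data.

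The members and gene lists were chosen with earlier results of these data known. Named genes were all members, up to 4 genes per list with the smallest adjusted p at 8 against 1 kPa and up to 3 at 30 against 1 kPa, further receptors, SMADs and ligands, and the 3 nearest genes for ID1, ID2, ID3 and SMAD6. The settings varied were the low-count filter (none, or a stricter one of at least 1 CPM in at least 8 libraries), scaling by median ratios or by library size alone, DESeq2 1.42.0, limma-voom (limma 3.58.1), a replicate block, depth class, a length offset, 2 groups alone and leaving out each library. Single values of some listed marker genes are not reported here.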

Additional observations from a re-analysis of the deposited data

Results flagged for a closer look

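In 2 of the 30 sets of 4 libraries checked (10 genes at 3 stiffnesses) 1 library stood far from the other 3, a gap that chance gives in about 5% of such sets. ID2 at 30 kPa was 86.4 CPM in replicate 1, against 109 to 113 CPM in the other 3. Without that library the difference of ID2 at 30 against 8 kPa was −0.15 on the log2 scale (edgeR adjusted p = 0.381). MSX2 at 8 kPa was 7.86 CPM in replicate 4, against 10.9 to 11.5 CPM in the other 3. Without it MSX2 at 30 against 8 kPa was −0.06 on the log2 scale (edgeR adjusted p = 0.798).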

How the results depend on the processing

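Of 660 checks of single members under the alternatives, 582 kept direction and side of the threshold, 64 lost it, 3 gained it and 11 changed sign. Most of the 582 are members that were not called and stayed so, and only called members could lose the threshold. The losses were 37 at 8 against 1 kPa, where 5 members were called, and 27 at 30 against 1 kPa, where 2 were. The 5 members past the threshold at 8 against 1 kPa became 2 with 2 groups alone and 0 with depth class as a term, and 0 to 5 on leaving out 1 library. The 2 at 30 against 1 kPa became 0 with library size alone, 0 with depth class, 1 with the length offset, 1 with 2 groups alone, and 0 to 2 on leaving out 1 library. At 30 against 8 kPa the count was 0 in all alternatives run. With depth class as a term MSX1 at 8 against 1 kPa was −0.0298 and ID2 at 30 against 1 kPa −0.0366. Leaving out 1 library moved MSX1 (8 against 1 kPa) between −0.0340 and 0.102, SMAD7 between −0.0736 and 0.0245, and at 30 against 8 kPa BMPR2 between −0.0257 and 0.0128, MSX2 between −0.0650 and 0.0998 and ID3 between −0.00791 and 0.126; none of these passed, and the cause was not tested. BMPR2 at 8 against 1 kPa was lost with library size alone (adjusted p = 0.0618), no filter (0.139), the length offset (0.0629) and 2 groups alone (0.0542). With 2 groups alone SMAD6 had 0.0932 and MSX2 0.0670.

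With the replicate number as a block, 5 members passed at 8 against 1 kPa and 3 at 30 against 1 kPa, ID1 among them (adjusted p = 0.0181). Of 12 same-number pairs 5 correlated over 0.1 (−0.125 to 0.349) and 6 of 12 libraries correlated best with their own number. Neither the labels nor these correlations establish that the numbers pair the libraries, and whether they do is unknown; all 3 pairs of replicate 2 were over 0.1 (0.171 to 0.349), and the block took the SE of ID1 at 8 against 1 kPa from 0.123 to 0.0654. Over all genes the 2472 calls at 8 against 1 kPa became 3273 with the block, 1068 with 2 groups alone, 0 with depth class, 534 without 8 kPa replicate 3 and 3563 without 1 kPa replicate 4. The 437 at 30 against 1 kPa became 263 with library size alone, 875 with no filter, 1068 with DESeq2, 974 with the block, 0 with depth class, and 50 to 676 on leaving out 1 library. The 0 at 30 against 8 kPa became 330, 430, 40 and 61 with no filter, DESeq2, the block and 2 groups alone, and up to 1026 without 8 kPa replicate 4. The lowest count behind a member's value was 66, for MSX2 in 1 kPa replicate 2.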

Other observations

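Ranked over the 12 libraries within each of the 10 genes, 30 kPa replicate 1 was lowest for 4 genes, with a mean rank of 2.7, and 1 kPa replicate 2 was lowest for 3. The highest library was 8 kPa replicate 3 for 3 genes, with a mean rank of 9.7. Some listed genes were near or at zero counts: the ligands GDF2 and BMP10 had 0 and 1 count in all 12 libraries, and the antagonist SOST had 0.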
